A study of Mus musculus with 30 samples.

Results

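Base excision repair removes small base lesions, such as the oxidised guanine that reactive oxygen species leave in DNA, without unwinding a long stretch of the helix. A glycosylase recognises the damaged base and cuts it out, an endonuclease opens the strand at the empty site, and a polymerase and a ligase fill and seal the gap on a scaffold protein. Carbon black nanoparticles are known to give rise to reactive oxygen species, and liver cells repair oxidised bases mainly by this pathway. The 10 core genes described here are the glycosylases Ogg1, Mutyh, Neil1, Nthl1 and Ung, the endonuclease Apex1, the break sensor Parp1, the scaffold Xrcc1, the polymerase Polb and the ligase Lig3. They were taken by name, through the RefSeq transcript given for each probe, from 17016 genes named on the array. They have 13 of the 41174 probes. Of these 13, 12 passed the filter on dim signal, and all 10 genes had at least 1 tested probe among 12188 named genes tested.

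RNA was taken from the livers of female C57BL/6 mice acquired at 5 to 6 weeks of age. The 14 exposed mice had received 0.162 mg of Printex 90, a carbon black of nanometre-sized particles, through the trachea, suspended in saline with cell-free lung lavage fluid of the same strain. The 16 control mice have a treatment given in the labels only as none, so whether they received the vehicle is not stated. Each liver was set against a universal mouse reference RNA on a 2-colour Agilent array, with liver RNA always in Cy5 and the reference always in Cy3. The labels number single animals, of which the series description counts 6 per treatment, fewer than were put on arrays. By these numbers each group splits into 3 blocks of neighbours, called runs here. Exposed runs 1, 2 and 3 held 4, 5 and 5 animals, and control runs 1, 2 and 3 held 6, 5 and 5. What a run stands for, and how long after exposure an animal was killed, is not stated in the labels. DNA damage was not analysed here.

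A value is the log2 ratio of liver RNA over reference RNA for 1 probe, so 0 means an equal signal and -1 a signal at 50% of the reference. Each gene has its own level in the reference, and ratios are not compared between genes. The arrays lay on 9 slides, 7 of them with both groups, and exposed animals always took positions 3 and 4 of a slide and controls positions 1 and 2, so position and group cannot be told apart. Run 1 of either group occupied solely the first of its 2 positions, and run 3 solely the second. On single arrays, 42.8% to 79.2% of probes gave a clear Cy5 signal over background. Exposed run 1 lay on slides 1, 2, 5 and 8, with a median Cy5 intensity per array of 104 to 119.5. Exposed run 2 had 116 on slide 1 and 131 to 155 on slides 3, 4, 7 and 9. Exposed run 3, on slides 2, 3, 5, 8 and 9, had 113.5 to 162.5. Exposed runs 1 and 2 thus shared only slide 1 and differed in array brightness elsewhere. The part of array brightness in the differences between runs was not tested. The 4 tested hepatocyte markers of 6 listed had a mean log2 ratio of 4.76 to 5.82 in exposed livers and of 4.66 to 6.10 in control livers. In whole liver, fewer cells of a type and less RNA per cell cannot be told apart.

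Between all exposed and all control livers, 0 of 10 core genes passed the threshold of 0.05 in limma, where p values were adjusted by Benjamini-Hochberg across every probe tested. In the same comparison 0.0164% of named genes passed. At an unadjusted p under 0.05 stood 1 of the 10, Apex1, against 12.3% of named genes. The median difference over the 10 was 0.01, and over all genes -0.00098. The 95% confidence intervals of the 10 reached from -0.26 to 0.35 on the log2 scale, which is 0.832-fold to 1.27-fold. The intervals of 9 genes held 0, and that of Apex1 did not, before adjustment.

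**Figure D1:**
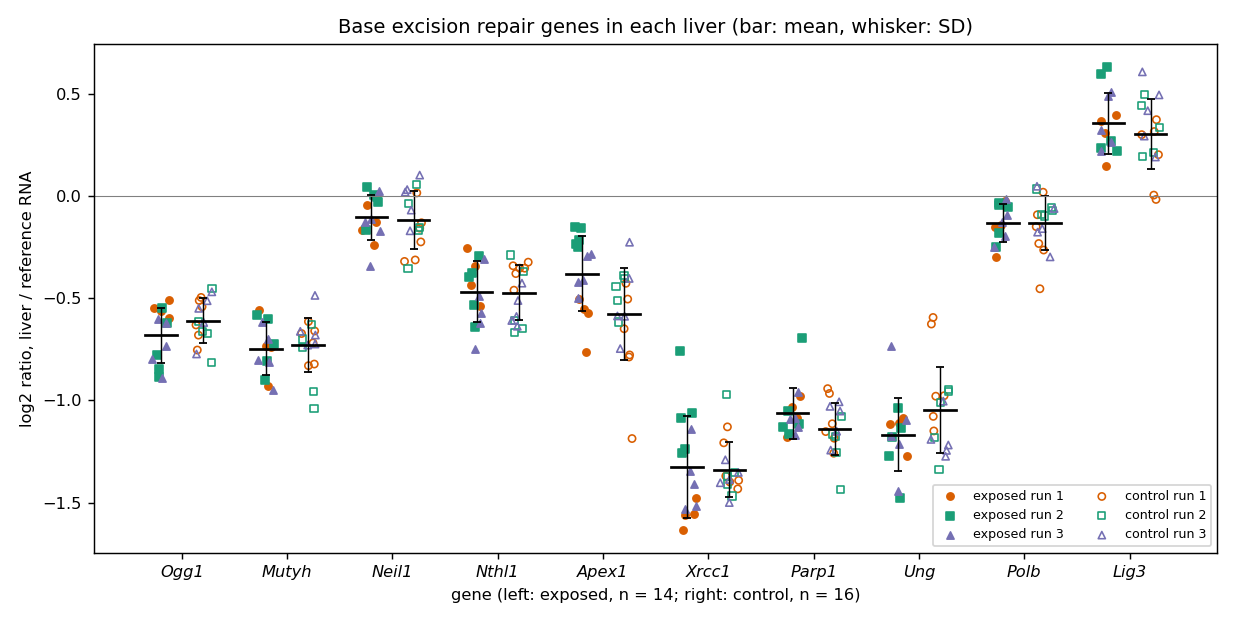
Log2 ratio of liver over reference RNA (y axis) for each of the 10 genes (x axis), with 14 exposed livers as filled symbols on the left and 16 control livers as open symbols on the right of each gene. Colour and symbol mark the runs, the bar is the mean and the whisker the SD. The 2 groups overlap for every gene. The 3 exposed runs are apart for Apex1, runs 1 and 2 for Xrcc1, and runs 1 and 3 for Ogg1. Of named genes 11.9% are apart between exposed runs 1 and 2, 7.64% between 1 and 3 and 1.78% between 2 and 3.

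Ogg1 (NM_010957, chr6:113326972-113334877 in GRCm38.p6), the glycosylase that removes 8-oxoguanine, had a lowest, median and highest log2 ratio of -0.89, -0.62 and -0.51 in exposed livers and of -0.81, -0.62 and -0.45 in control livers. The groups overlapped nearly from end to end. Its difference was -0.07 ± 0.05 (SE, 95% interval -0.17 to 0.03; limma adjusted p = 0.584). A further Ogg1 probe, well above background on 28 of 30 arrays, gave -0.08 ± 0.04. Mutyh (NM_133250, chr4:116807636-116819439) takes out the adenine that is wrongly paired with 8-oxoguanine. The ratios were -0.95, -0.74 and -0.56 in exposed livers and -1.04, -0.71 and -0.49 in control livers, a difference of -0.02 ± 0.05 (adjusted p = 0.908). This probe was above background on 24 of 30 arrays, and a further Mutyh probe on 7 of 30, too few to be tested, with ratios of -0.52 to -0.07 in exposed and of -0.55 to 0.14 in control livers.

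Neil1 (NM_028347, chr9:57142788-57148688) and Nthl1 (NM_008743, chr17:24632680-24638838) are glycosylases for oxidised pyrimidines. The lowest, median and highest log2 ratio of Neil1 were -0.34, -0.12 and 0.05 in exposed livers and -0.36, -0.14 and 0.10 in control livers. Those of Nthl1 were -0.75, -0.46 and -0.25 in exposed livers and -0.67, -0.44 and -0.29 in control livers. Both differences were 0.01 ± 0.05, with limma adjusted p = 0.946 for Neil1 and 0.956 for Nthl1. Ung (chr5:114130366-114139321), which removes uracil from DNA, had ratios of -1.48, -1.15 and -0.73 in exposed livers and of -1.34, -1.04 and -0.59 in control livers. The highest exposed liver lay below 2 control livers, and the other exposed livers lay below -1. The difference was -0.13 ± 0.07 (interval -0.26 to 0.01; adjusted p = 0.462), with a lower exposed mean on 5 of 7 slides. Its probe carries the transcript NM_011677 in the newer array design and NM_001040691 in the older.

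Apex1 (NM_009687, chr14:50924949-50927188), the endonuclease that cuts DNA at a site without a base, had the widest gap between the groups among the 10 genes. Its log2 ratios were -0.76, -0.35 and -0.15 (lowest, median and highest) in exposed livers and -1.19, -0.55 and -0.23 in control livers. The difference was 0.21 ± 0.07 (interval 0.07 to 0.35; 1.15-fold; limma adjusted p = 0.21), so Apex1 did not pass. The exposed mean was higher on 6 of 7 slides that held both groups, by 0.23 on average and from -0.03 to 0.38. The reference RNA itself, tested in Cy3 between the same arrays, gave no call for any of the 10 genes (limma smallest adjusted p = 0.76). Of all 23607 probes 0 were called there, so the lack of a call says nothing particular about these genes. Their Cy3 differences ranged from -0.09 to 0.20 on the log2 scale.

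Parp1 (NM_007415, chr1:180568891-180600999) binds single-strand breaks and marks them with poly(ADP-ribose), which draws Xrcc1 to the break. Its log2 ratios were -1.18, -1.09 and -0.70 (lowest, median and highest) in exposed livers and -1.44, -1.15 and -0.94 in control livers, a difference of 0.07 ± 0.05 (limma adjusted p = 0.551). Exposed animal 195 was the highest of all 30. Xrcc1 (NM_009532, chr7:24546699-24573438), the scaffold that holds the polymerase and the ligase at the break, had ratios of -1.63, -1.38 and -0.76 in exposed livers and of -1.50, -1.38 and -0.97 in control livers. Its means were -1.33 ± 0.25 (SD, n = 14) in exposed and -1.34 ± 0.13 (SD, n = 16) in control livers, and the difference was 0.01 ± 0.07 (adjusted p = 0.956). Exposed livers thus had the lowest and the highest Xrcc1 of all 30 around nearly the same mean.

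Polb (NM_011130, chr8:22628119-22653464), the polymerase that fills the gap of 1 base, had log2 ratios of -0.30, -0.13 and -0.01 (lowest, median and highest) in exposed livers and of -0.45, -0.09 and 0.05 in control livers. Its difference was -0.0026 ± 0.04 (limma adjusted p = 0.99). Lig3 (NM_010716, chr11:82781109-82804274), the ligase that works with Xrcc1, had ratios of 0.15, 0.32 and 0.63 in exposed livers and of -0.02, 0.31 and 0.61 in control livers. Its difference was 0.03 ± 0.06 (adjusted p = 0.858), and a further Lig3 probe gave 0.04 ± 0.06. Within runs, the SD of a gene over animals ranged from 0.115 for Polb to 0.187 for Ung on the log2 scale, beside a median of 0.175 over 12188 genes. The 10 genes stood between the percentiles 10.3 and 56.5 of that spread.

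**Figure D2:**
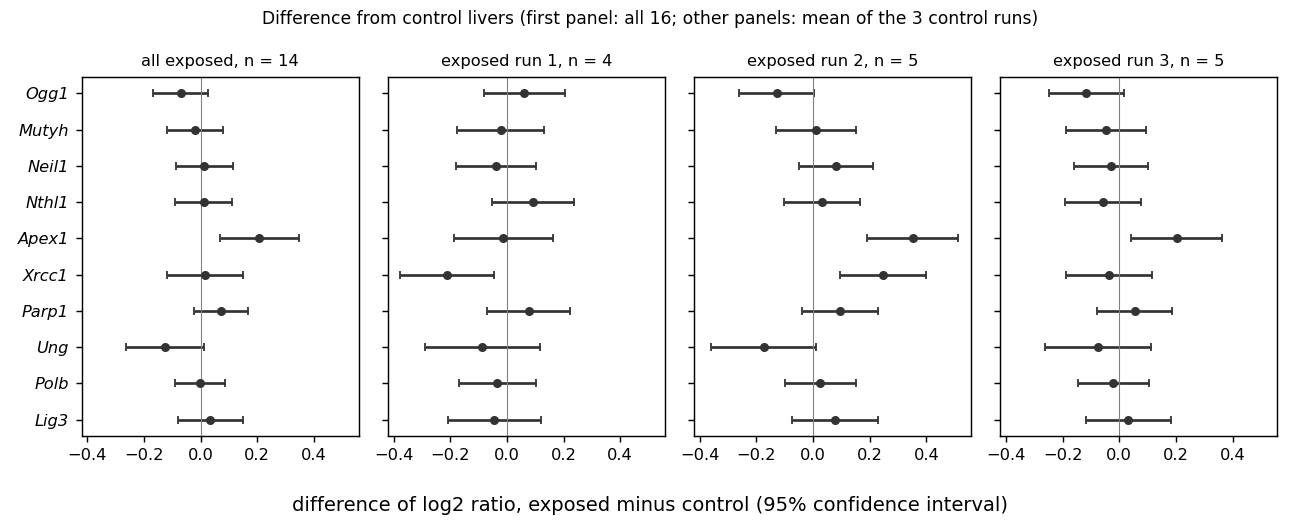
Difference of the log2 ratio, exposed minus control (x axis), with its 95% confidence interval for each of the 10 genes (y axis), for all exposed livers against all 16 controls and for each exposed run against the mean of the 3 control runs. Apex1 lies right of 0 in all exposed livers and in runs 2 and 3, and Xrcc1 left of 0 in run 1 and right of it in run 2; no difference drawn passed the adjusted threshold.

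Among the 3 exposed runs, 1 of the 10 core genes differed, which was Xrcc1 (limma moderated F test, adjusted p = 0.0161). In that test 5.19% of named genes passed, so 1 of 10 is near the background share. Xrcc1 log2 ratios were -1.63, -1.56, -1.56 and -1.48 in exposed run 1. They were -1.26, -1.24, -1.08, -1.06 and -0.76 in exposed run 2. They were -1.53, -1.52, -1.41, -1.35 and -1.14 in exposed run 3. Run 1 lay wholly below run 2, and run 3 overlapped both. The means were -1.56 ± 0.06 (SD, n = 4) in run 1, -1.08 ± 0.20 (SD, n = 5) in run 2 and -1.39 ± 0.16 (SD, n = 5) in run 3, and run 2 exceeded run 1 by 0.46 ± 0.10 (SE, 1.37-fold).

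The control runs did not show this order. Xrcc1 ranged from -1.43 to -1.13 in control run 1, from -1.47 to -0.97 in control run 2 and from -1.50 to -1.29 in control run 3, and its means there were -1.32, -1.31 and -1.39. Among the 3 control runs 0 of 10 core genes passed (limma smallest adjusted p = 0.638, background 0.107%), and 2 of 10 had an unadjusted p under 0.05, against 7.62% of named genes. Against the mean of the control runs, Xrcc1 stood at -0.21 ± 0.08 in exposed run 1 (interval -0.38 to -0.05; adjusted p = 0.134), 0.25 ± 0.07 in run 2 (interval 0.09 to 0.40; adjusted p = 0.221) and -0.04 ± 0.07 in run 3. None of these 3 differences passed. In run 1, 3 of 4 livers lay below the lowest of 16 controls, and in run 2, 1 of 5 lay above the highest. Shares of named genes with like counts were not taken.

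Xrcc1 was also read by slide, and the part of slide in its values was not tested. On 1 slide exposed animals 197 of run 2 and 215 of run 3 stood apart, at -1.06 and -1.53. Its 2 highest control livers, at -0.97 and -1.13, shared a slide with exposed animal 195 of run 2, at -1.08. On the slide that held livers of both exposed runs 1 and 2, the run 1 liver stood at -1.48, the run 2 liver (animal 193) at -0.76 and the controls at -1.35 and -1.40. The Xrcc1 call among runs was lost with slide as a fixed block (limma adjusted p = 0.151), with a term for position (0.0619), with median centring in place of loess (0.999753) and without animal 193 (0.0523).

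**Figure D3:**
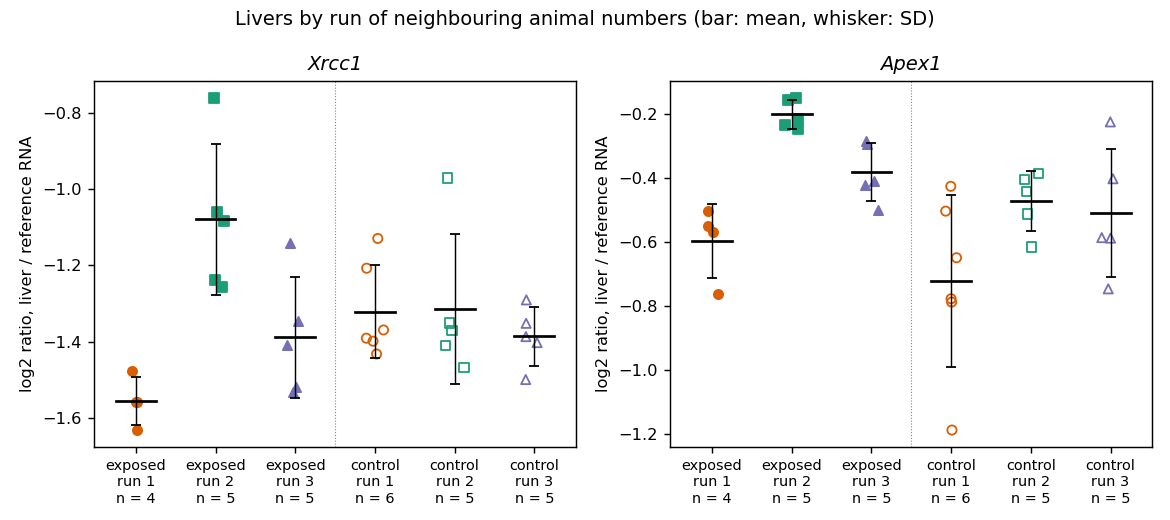
Log2 ratio of liver over reference RNA (y axis) of Xrcc1 and Apex1 for each liver by run (x axis), exposed runs as filled symbols on the left and control runs as open symbols on the right; bars are means and whiskers SD. In exposed run 1 Xrcc1 stays at or below -1.48 and in run 2 at or above -1.26, and Apex1 in run 2 lies between -0.25 and -0.15.

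Apex1 had a like order over the exposed runs, without passing the F test (limma adjusted p = 0.0901). Its log2 ratios were -0.76, -0.57, -0.55 and -0.50 in exposed run 1. They were -0.25, -0.23, -0.22, -0.16 and -0.15 in exposed run 2. They were -0.50, -0.42, -0.41, -0.29 and -0.28 in exposed run 3. No exposed run overlapped another, although runs 1 and 3 nearly touch. Of named genes with values in all animals concerned, 11.9% were likewise apart between runs 1 and 2, 7.64% between runs 1 and 3 and 1.78% between runs 2 and 3. Among the 10 core genes these counts were 2 (Apex1 and Xrcc1), 2 (Apex1 and Ogg1) and 1 (Apex1).

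Control livers had Apex1 log2 ratios of -1.19 to -0.43 in run 1, -0.62 to -0.39 in run 2 and -0.75 to -0.23 in run 3. The control means were -0.72, -0.47 and -0.51 in runs 1, 2 and 3, and the exposed means -0.60, -0.20 and -0.38. Both groups thus had their lowest Apex1 mean in run 1 and their highest in run 2. Of the 16 controls, 15 lay below the lowest liver of exposed run 2. The share of named genes with a like count was not taken. Apex1 stood at 0.35 ± 0.08 in exposed run 2 against the mean of the control runs (interval 0.19 to 0.51; 1.28-fold; limma adjusted p = 0.127), at 0.20 ± 0.08 in run 3 (adjusted p = 0.262) and at -0.01 ± 0.09 in run 1 (adjusted p = 0.965). With array weights the run 2 difference was also 0.35 and passed (adjusted p = 0.0307), as it did without control animal 552, at 0.37 (adjusted p = 0.0374). The lowest exposed and the lowest control liver for Apex1 lay on the same slide. Without that control, animal 548, the F test passed for Apex1 (adjusted p = 0.0359).

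Each exposed run set against the mean of the control runs gave 0 of 10 core genes past the threshold in limma. The background was 6.07% of named genes in run 1, 0.0082% in run 2 and 0.139% in run 3. At an unadjusted p under 0.05 stood 1, 2 and 1 of the 10, which were Xrcc1 in run 1, Xrcc1 and Apex1 in run 2 and Apex1 in run 3, against 22.1%, 10.6% and 13.2% of named genes. Ogg1 stood at 0.06 ± 0.07, -0.13 ± 0.06 and -0.12 ± 0.06 in runs 1, 2 and 3, and its further probe at 0.05, -0.11 and -0.15. The remaining 7 genes lay between -0.17 and 0.10 in the 3 runs. The run comparisons share their control livers.

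The upstream sequences of Xrcc1 and Apex1 are shown because these genes had the smallest p among the exposed runs, although Apex1 did not pass. Both are the 250 bases before the annotated start, on the plus strand, from RefSeq for GRCm38.p6, and capitals mark CACGTG, the E-box read by basic helix-loop-helix factors.
Xrcc1 (chr7:24546449-24546698): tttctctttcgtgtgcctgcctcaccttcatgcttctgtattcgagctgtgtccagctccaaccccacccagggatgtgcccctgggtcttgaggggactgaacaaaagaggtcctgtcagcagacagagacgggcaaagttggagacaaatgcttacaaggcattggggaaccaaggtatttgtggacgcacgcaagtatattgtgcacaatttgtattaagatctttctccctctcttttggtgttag
Apex1 (chr14:50924699-50924948): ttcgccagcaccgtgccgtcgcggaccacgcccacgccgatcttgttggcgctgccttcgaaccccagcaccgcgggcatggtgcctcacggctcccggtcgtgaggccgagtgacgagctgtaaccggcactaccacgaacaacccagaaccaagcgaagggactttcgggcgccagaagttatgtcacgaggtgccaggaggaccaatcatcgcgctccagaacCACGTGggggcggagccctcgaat
The Apex1 window holds 1 CACGTG at -24 from the start and has 64.8% G and C, and the Xrcc1 window holds none and has 49.2% G and C, beside a median of 52.4% over 32851 windows of the same length. Both strands were searched, and CACGTG reads the same on each. Of all windows 6.02% hold it, and of the 9 core genes with an entry (Polb is without one) so do Apex1, Parp1 and Lig3. CACGTG itself contains the pair CG, which stands 28, 16 and 12 times in these windows, beside a median of 6 over all. The share among windows equally rich in CG was not taken. The motif GGGCGG, the GC box, stands once in the Apex1 window, where it overlaps no CACGTG, and in 32.7% of all windows. CCAAT stands once in each of both windows and in 33.8% of all.

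A list of 32 other base excision repair genes, chosen with earlier results of these data known, was measured beside the core genes. It holds further glycosylases, end-processing enzymes, and the replicative polymerases, clamp and clamp loader that carry out repair by longer patches. Of the 32, 30 were tested, and Neil2 and Tdp1 were too dim. Between all exposed and all control livers 0 of 30 passed in limma. The smallest p belonged to Pold2, a subunit of DNA polymerase delta, at 0.16 ± 0.04 (adjusted p = 0.146), and the glycosylase Neil3 stood at -0.25 ± 0.12. The median difference was -0.03, beside -0.00098 over all genes.

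In exposed run 1 against the mean of the control runs, 5 of these 30 genes were lower and 1 was higher (limma, Benjamini-Hochberg). Of named genes 4.55% were lower and 1.52% higher in that comparison. Of 1132 probes called in it 66.6% were lower, against 26.4% of 174 with median centring, 42.7% of 288 with a position term, 50.2% and 50.6% with the deposited table and with processed signals, 55.6% without background subtraction, 56.9% with slide as a fixed block and 35.5% of 510 without exposed animal 176. The median difference was -0.11 over the list and -0.04 over all genes. Rfc4, a subunit of the clamp loader that puts PCNA onto DNA, fell by 0.48 ± 0.09 (0.719-fold; adjusted p = 0.00168). Its log2 ratios were -2.95, -2.89, -2.71 and -2.68 in the 4 livers of exposed run 1 and -2.54 to -2.02 in the 16 control livers. These livers did not overlap. Between exposed run 1 and all control livers 0.854% of named genes were likewise apart, and of the 30 genes 4 were, with Rfc4, Nudt1 and Poll below the controls and Pold2 above them. Lig1, the ligase of replication and of repair by longer patches, fell by 0.38 ± 0.10 (adjusted p = 0.0292), with ratios of -3.55 to -3.28 in exposed run 1 and of -3.35 to -2.70 in control livers.

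Nudt1 (MTH1), which clears oxidised guanine nucleotides from the pool before they enter DNA, fell by 0.27 ± 0.07 in exposed run 1 (0.83-fold; limma adjusted p = 0.0202). The 4 livers of exposed run 1 had log2 ratios of 0.35, 0.35, 0.37 and 0.46 and the control livers 0.50 to 0.86, with no overlap. Poll, a gap-filling polymerase related to Polb, fell by 0.20 ± 0.06 (adjusted p = 0.0405), with ratios of -0.58, -0.58, -0.55 and -0.52 in exposed run 1 and of -0.50 to -0.14 in control livers. Its further probe gave -0.20 ± 0.07 (adjusted p = 0.0877).

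Pole4, a small subunit of DNA polymerase epsilon, rose by 0.39 ± 0.08 in exposed run 1 (limma adjusted p = 0.00579). Its 3 probes disagreed: another stood at 0.45 ± 0.07 and the remaining probe at -0.16 ± 0.12, and their mean at 0.23 (adjusted p = 0.107) did not pass. Rfc4 was the single call of the 30 when exposed run 1 was set against control run 1 alone (-0.46 ± 0.10; adjusted p = 0.0383), where 0.304% of named genes passed. Without exposed animals 176, 177 and 180 in turn, 2, 1 and 3 of the 30 genes passed in run 1. Of 14 other settings the call held in 13 for Rfc4 (difference -0.62 to -0.38), 10 for Lig1 (-0.42 to -0.20), 10 for Nudt1 (-0.29 to -0.13), 8 for Poll (-0.22 to -0.05) and 10 for Pole4 (0.23 to 0.62). With median centring none of these 5 calls held. In runs 2 and 3 0 of 30 passed against the mean of the control runs, with medians of 0.06 and -0.02.

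**Figure D4:**
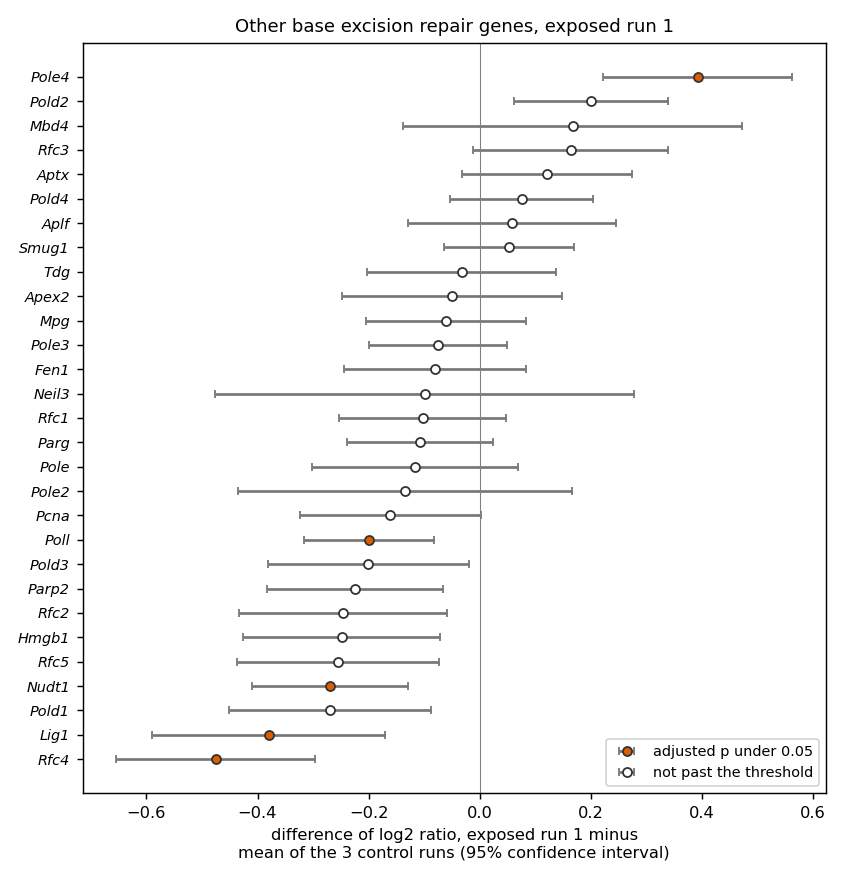
Difference of the log2 ratio between exposed run 1 (n = 4) and the mean of the 3 control runs (x axis), with its 95% confidence interval, for the other tested base excision repair genes (y axis), without 1 that is not reported here. Filled symbols passed an adjusted p of 0.05; Rfc4, Lig1, Nudt1 and Poll lie left of 0 and Pole4 right of it.

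Across the 3 exposed runs 5 of these 30 genes passed the F test, which were Pole4 (limma adjusted p = 0.00272), Rfc4 (0.011), Nudt1 (0.0261), Parp2 (0.0324) and Poll (0.0434), against 5.19% of named genes. Further probes were mixed in the same limma F test. That of Poll did not pass (adjusted p = 0.143) and that of Parp2 did (0.0463). Of Pole4, another probe passed (0.000303) and the remaining probe did not (0.938). Parp2, a break sensor related to Parp1, stood at -0.22 ± 0.08 in exposed run 1 (adjusted p = 0.0921). Its log2 ratios were -1.26 to -0.93 in exposed run 1, -0.92 to -0.49 in exposed run 2 and -1.18 to -0.70 in control livers. Across the control runs 0 of 30 passed, against 0.107% of named genes. With slide as a fixed block or with a term for position the count across exposed runs was 1 in each case, without exposed animals 176, 177, 180, 195 and 196 in turn it was 3, 2, 2, 3 and 3, and with median centring it was 0.

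Some markers of proliferation also passed in exposed run 1 against the mean of the control runs. Of 18 tested genes of 20 listed, which share no member with the repair list, 4 fell and 1 rose in exposed run 1, against 4.55% and 1.52% of named genes. The replicative helicase subunits Mcm4, Mcm6 and Mcm7 fell by 0.53 ± 0.11, 0.64 ± 0.15 and 0.43 ± 0.08, and the thymidylate synthase gene Tyms fell by 0.39 ± 0.08, while the thymidine kinase gene Tk1 rose by 0.35 ± 0.10 (limma adjusted p = 0.0033, 0.0111, 0.00184, 0.00388 and 0.044). The mean log2 ratio over the list was -3.15 to -3.01 in exposed run 1, -2.90 to -2.67 in exposed run 2, -3.04 to -2.69 in exposed run 3 and -3.04 to -2.52 in control livers. Of 6 stellate cell markers the collagens Col1a1 and Col3a1 fell in exposed run 1, by 0.61 ± 0.18 and 0.98 ± 0.19. Of 4 hepatocyte markers Ttr fell by 1.14 ± 0.25, and of 5 bile duct markers Spp1 fell by 0.59 ± 0.17, where 4.55% of named genes fell. The other 4 stellate, 3 hepatocyte and 4 bile duct markers did not pass. Over these lists the median difference was -0.13, -0.10 and -0.26, and the highest was 0.11, 0.03 and -0.04. Of 6 endothelial, 5 macrophage, 6 lymphocyte and 3 neutrophil markers 0 passed in that run. Their median differences were -0.26, -0.23, -0.14 and 0.27, beside -0.04 over all genes. The highest were -0.13, -0.18, -0.02 and 0.65, so every endothelial, macrophage and lymphocyte marker tested lay below 0. Against control run 1 alone 0 of 18 proliferation, 0 of 4 hepatocyte and 0 of 5 bile duct markers passed. There 1 of 6 stellate markers passed, beside 0.304% of named genes, and the median over the proliferation list was -0.25. The part of these markers in the values of the repair genes was not tested.

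Genes of other repair pathways were measured too. Between all exposed and all control livers 0 of 23 nucleotide excision, 0 of 8 mismatch, 0 of 21 double-strand break and 0 of 21 p53 target genes passed in limma, against 0.0164% of named genes. The smallest p in each list belonged to the helicase gene Ercc3 at 0.16 ± 0.05 (adjusted p = 0.152), the exonuclease gene Exo1 at -0.29 ± 0.11 (0.27), the end-binding Ku subunit Xrcc5 at 0.19 ± 0.06 (0.194) and the kinase gene Plk3 at 0.53 ± 0.15 (0.146). Xrcc6, the partner of Xrcc5 in Ku, stood at 0.13 ± 0.05. In exposed run 1 none of these 4 lists had a gene past the threshold, against 6.07% of named genes. Across the exposed runs Gtf2h4, of the repair factor TFIIH, and Nbn, of the break-sensing MRN complex, passed (adjusted p = 0.0215 and 0.0182), where 5.19% of named genes did.

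The core genes were also set against each other over the 30 livers, in 45 pairs. Pearson's r ranged from -0.46 to 0.53 with a median of 0.04, and 0 of 45 pairs passed after Benjamini-Hochberg adjustment of permutation p values. The highest belonged to Apex1 and Xrcc1 (r = 0.53, permutation p = 0.00322, adjusted p = 0.145; Spearman's rho = 0.55, permutation p = 0.00174, adjusted p = 0.0783). Without the 2 livers farthest from the median on Apex1 it was 0.55. In exposed livers alone r was 0.85 and in control livers alone 0.33. After removal of slide and run means over all 30 livers r was lower, at 0.19, and imprecise because many means were taken out. Ogg1 and Polb stood at 0.27 before and 0.56 after that removal. The permutation of the values left after removal did not allow for the means taken out, so its p values are too small.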

How the data were processed

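The deposited scanner files hold the median intensity of each spot in Cy5 and Cy3, which Agilent Feature Extraction 10.7.3.1 (25 arrays) or 10.1.1.1 (5 arrays on 2 slides) read for the authors, per the file headers. A log10 ratio in these files, per the file headers, was used to check the deposited value table. That table holds log2 ratios of Cy5 over Cy3 made by the authors, and each of its 30 columns matched its own array best.

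Intensities were corrected by normexp (offset 50) and normalised within arrays by loess (limma 3.58.1, R 4.3.3). Outlier spots were left out and spots of a probe averaged. Testing was limited to probes whose Cy5 signal stood well above background on 14 or more of 30 arrays (23607 probes). Where a gene had several such probes, the brightest in Cy5 stood for it, and its symbol and position came from RefSeq for GRCm38.p6. Groups and 6 run means (a gap over 10 in animal numbers starts a run) were fitted in limma with slide as a random block (correlation 0.159 and 0.147), two-sided, with a threshold of 0.05 after Benjamini-Hochberg adjustment across the probes tested. When animals were left out the correlation was kept at these values. Correlations used 100000 permutations (Python 3, scipy). The number of arrays limits the precision. Text names all core genes and, of other lists, those past the threshold and up to 3 more by smallest p. The core genes and lists were chosen with earlier results of these data known. Some genes of the lists are counted but not reported here by name.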

Additional observations from a re-analysis of the deposited data

Results flagged for a closer look

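Xrcc1 differed among the 3 exposed runs (limma moderated F test, adjusted p = 0.0161), with all 4 livers of run 1 below all 5 of run 2. Of named genes 5.19% passed this test and 11.9% had runs 1 and 2 apart. The Xrcc1 call was lost with slide as a fixed block, a position term or median centring, and without animal 193. Within runs, 4 of 60 combinations of a core gene and a run had 1 liver far from the others by Dixon's criterion, where chance flags about 1 in 20. Parp1 in exposed run 2 was -0.70 in animal 195, with the next liver at -1.05 and the lowest at -1.17. Ung in exposed run 1 was -1.27 in animal 176, with the others between -1.11 and -1.09. Xrcc1 in control run 2 was -0.97 in animal 570, with the next liver at -1.35 and the lowest at -1.47. Mutyh in control run 3 was -0.49 in animal 595, with the next liver at -0.66 and the lowest at -0.73. Animals 195 and 570 lay on the same slide, one of 2 extracted with the older software version. Ranges over the fits without 1 animal are given below, and not separately for each of these animals.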

How the results depend on the processing

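Across all exposed and all control livers 0 of 10 core genes passed under 13 alternatives (12 for Mutyh, too dim for the strictest filter) and without each of 30 animals in turn (smallest limma adjusted p = 0.0788, for Apex1 with array weights). The count of core genes that differed among the exposed runs, 1 in the report, was 0 with median centring, 0 with slide as a fixed block, 0 with a position term, 2 with array weights, and 0 to 2 without 1 animal. The count in exposed run 2 against the mean of the control runs, 0 in the report, was 1 with array weights and 0 to 1 without 1 animal. Of the 30 other base excision repair genes, the count in exposed run 1, 6 in the report, was 0 with median centring, 3 with slide as a fixed block, 1 with a position term, 1 against control run 1, at most 9 (processed signals) in the other settings, and 1 to 7 without 1 animal. Their count among exposed runs, 5 in the report, was 0 with median centring, 3 with the deposited table, 1 with slide fixed, 3 without the older extraction version, 1 with a position term, at most 7 in the other settings, and 2 to 7 without 1 animal. Correlated pairs, 0 in the report, were 2 after slide and run means were removed. The permutation behind these 2 did not allow for the means removed, so no conclusion is drawn from them. Differences near 0 changed sign: Neil1 was -0.0093 and Xrcc1 -0.0087 with processed signals, Nthl1 -0.0024 with the deposited table, Xrcc1 -0.00043 with run means, Polb 0.0025 without the older extraction version and Lig3 -0.013 with slide fixed. Without 1 animal Neil1 ranged from -0.0033 to 0.032, Nthl1 from -0.0032 to 0.035, Xrcc1 from -0.031 to 0.035 and Polb from -0.023 to 0.011. The causes were not tested. Dim signal limits Mutyh most, and position on the slide cannot be told apart from group.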
